A study of Mus musculus with 4 samples.

Results

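Megakaryocyte and platelet genes were examined in Thy1+ LSK cells, a fraction of mouse bone marrow that is lineage-negative, positive for Sca-1 and Kit, and enriched for haematopoietic stem cells. The 10 genes were set by name, as markers of the lineage: Pf4, Vwf, Selp, Gp1ba, Gp9, Gp6, Mmrn1, Treml1, Rgs18 and Nfe2. Of these, 9 had an array row with exactly 1 gene symbol, out of 22180 genes with such a row, and each of the 9 had 1 row. They are protein-coding genes on chromosomes 1 (Selp, Rgs18), 5 (Pf4), 6 (Vwf, Gp9, Mmrn1), 7 (Gp6), 15 (Nfe2) and 17 (Treml1). Gp1ba had no such row and was not analysed here. All 9 measured members passed the filter on dim genes, which removed genes whose mean log2 signal over the 4 arrays lay under 4.835, and Pf4 passed it only through its Nol3-/- MPN arrays.

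The arrays compared 2 samples of Nol3+/+ mice with 2 samples of Nol3-/- MPN mice. Both groups were C57BL/6 mice between 11 and 18 months of age, and the cells were uncultured and untreated. The labels put MPN, read here as myeloproliferative neoplasm, on the Nol3-/- samples only, so genotype and disease cannot be told apart. The wording of the series title would also allow the disease in both genotypes. Sex-linked signal divided the arrays in the same way, so sex cannot be told apart from genotype or disease either. The X-linked Xist was higher in both Nol3-/- MPN arrays, and the Y-linked Eif2s3y, Uty and Kdm5d were lower. No label says whether a sample was 1 animal or a pool, and the p-values therefore measure only the spread between these samples, which may be technical. Nol3 encodes ARC, an inhibitor of apoptosis. The series asks how the stem cell-enriched fraction differs between the genotypes.

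Megakaryocytes are the large marrow cells that shed platelets. They arise from stem and progenitor cells, and a part of the stem cell compartment already carries megakaryocyte transcripts such as Vwf, a state known as platelet-biased. Expansion of megakaryocytes is a hallmark of several myeloproliferative neoplasms. The members cover the proteins stored in platelet alpha granules (Pf4, Vwf, Selp, Mmrn1), receptors of the platelet surface (Gp1ba, Gp9, Gp6, Treml1), a brake on G-protein signalling (Rgs18) and a transcription factor of late megakaryocyte maturation (Nfe2). In bulk samples, fewer cells of a type and less RNA per cell cannot be told apart.

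GATA and ETS family factors are known to act together at megakaryocyte genes, so the promoters of Pf4 and Mmrn1, the 2 members whose groups did not overlap, are shown up to the annotated start. Sequences are from RefSeq (GRCm38.p6), 250 bases 5′ to 3′ on the plus strand. Pf4 is at chr5:90772185-90772434 and Mmrn1 at chr6:60944067-60944316. Capitals mark matches to GATA letters (AGATAA or TGATAA) or ETS letters (CCGGAA or AGGAAG) on either strand.
Pf4: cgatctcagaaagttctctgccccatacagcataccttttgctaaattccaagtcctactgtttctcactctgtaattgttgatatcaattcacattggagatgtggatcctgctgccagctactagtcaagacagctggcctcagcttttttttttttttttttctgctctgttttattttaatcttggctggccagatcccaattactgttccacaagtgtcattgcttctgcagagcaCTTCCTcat
Mmrn1: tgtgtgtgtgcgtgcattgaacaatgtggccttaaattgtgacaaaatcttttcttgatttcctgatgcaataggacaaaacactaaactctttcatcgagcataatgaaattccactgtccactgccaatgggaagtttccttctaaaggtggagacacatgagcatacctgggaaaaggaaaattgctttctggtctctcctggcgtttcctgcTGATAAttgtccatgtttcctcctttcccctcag

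The capitals in the Pf4 promoter are an ETS match on the minus strand, whose first base lies at position -9 from the start. Pf4 also had a GATA match beginning at position 37 after the start and a further ETS match at position 15, both outside the stretch shown. The capitals in the Mmrn1 promoter are a GATA match at position -34. Of the 10 members, 7 had a promoter window in the table, of 300 bases with 50 of them after the start. GATA letters were found in 4 of these 7 windows (Pf4, Mmrn1, Gp6 and Gp1ba), against 18.6% of all 32851 windows. ETS letters were found in 4 of 7 (Selp, Pf4, Gp9 and Gp1ba), against 45.2% of all windows. The NF-E2 letters TGAGTCA were found in 0 of 7 windows and in 5.20% of all windows. No match overlapped one of another motif. These matches describe the letters only, and Pf4 and Mmrn1 had opposite differences between the groups.

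The megakaryocyte and platelet genes differed in both directions between Nol3+/+ and Nol3-/- MPN cells, mostly by less than the spread between arrays. Of the 9 measured members, 5 (55.6%) had higher and 4 had lower mean signals in Nol3-/- MPN, against 51.7% higher of the 16635 genes tested. The median log2 difference was 0.03, beside 0.01 over all genes tested. These directions are weak: those of Gp9, Nfe2, Rgs18, Selp, Treml1 and Vwf turned when some array was left out. Differences throughout are Nol3-/- MPN minus Nol3+/+ on the deposited log2 scale. With limma and Benjamini-Hochberg adjustment over all genes tested, 0 of the 9 passed an adjusted p of 0.05. That threshold was passed by 0.024% of all genes (4 genes, the sex-linked Xist among them). With X- and Y-linked genes left out, 0 genes passed it. At an unadjusted limma p under 0.05 there was 1 member higher (Pf4) and 1 lower (Mmrn1), against 5.80% of all genes in either direction. Pf4 would not have been tested on the level of its Nol3+/+ arrays alone, so its place in this count depends on the group where it was high. No member differed at least 2-fold at that p, against 1.02% of all genes. Both Nol3-/- MPN arrays lay above both Nol3+/+ arrays for 1 of 9 members and for 19.7% of all genes, and below them for 1 of 9 members and for 15.9% of all genes. With 2 arrays in each group, an exact two-sided permutation test of a single gene cannot give a p under 0.333.

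**Figure D1:**
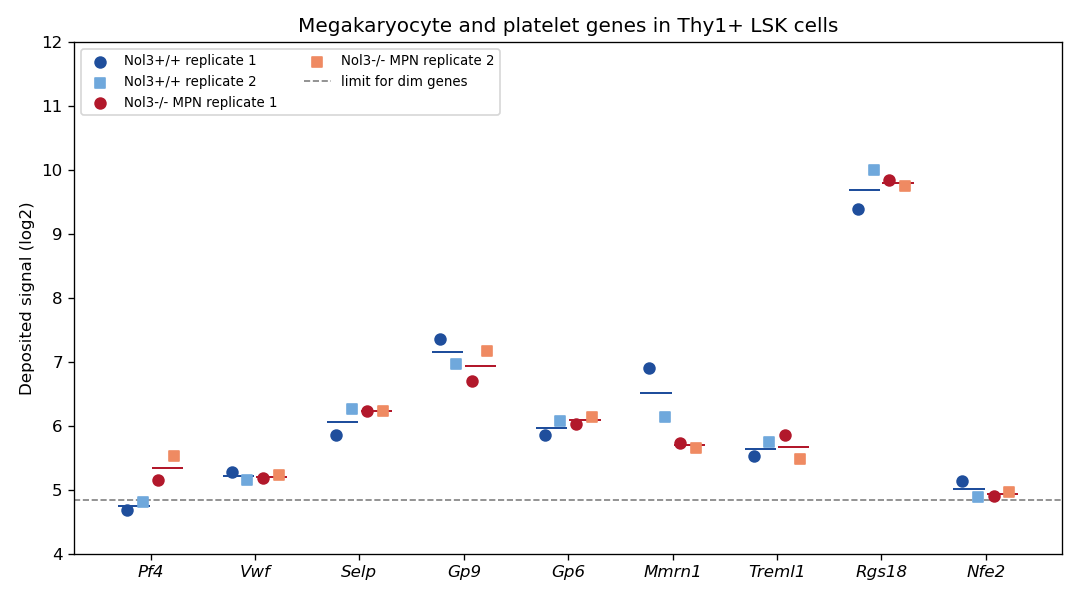
Deposited log2 signal (y axis) of the 9 measured members (x axis) on each of the 4 arrays, with short lines at the group means and a dashed line at the limit for dim genes, 4.835. The arrays of the groups are separated only for Pf4 and Mmrn1; levels of different genes rest on different probes and are not comparable.

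Among the granule proteins, Pf4 (platelet factor 4, a chemokine of the alpha granule) had the largest positive difference of the members. Its log2 signal was 4.68 and 4.80 in the Nol3+/+ arrays, against 5.14 and 5.52 in the Nol3-/- MPN arrays. Both Nol3-/- MPN arrays lay above both Nol3+/+ arrays, and the latter lay under the limit for dim genes. That limit is a percentile of mean signal and no detection call, and whether the Nol3+/+ signals of Pf4 exceeded background was not tested. The log2 difference of the deposited signals was 0.59 (SE 0.17, 95% interval 0.16 to 1.02, limma adjusted p = 0.841), and no fold change of transcript is given from it. The difference of Pf4 was 0.53 without Nol3+/+ replicate 1 and 0.65 without Nol3+/+ replicate 2. It was 0.78 without Nol3-/- MPN replicate 1 and 0.40 without Nol3-/- MPN replicate 2. Its sign could not turn with 1 array left out, since the groups did not overlap.

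Mmrn1 (multimerin 1, a carrier of factor V in platelet and endothelial granules) had the largest negative difference. It read 6.91 and 6.13 in the Nol3+/+ arrays, against 5.74 and 5.65 in the Nol3-/- MPN arrays. Both Nol3-/- MPN arrays were lower, but the 2 Nol3+/+ arrays lay 0.776 log2 units apart, nearly as far as the group means. The log2 difference was -0.83 (SE 0.29, 95% interval -1.55 to -0.10), a 1.77-fold lower signal (limma adjusted p = 0.841). Its size rested on Nol3+/+ replicate 1: without that array the difference was -0.44 (limma adjusted p = 0.911), and without Nol3+/+ replicate 2 it was -1.21 (limma adjusted p = 0.174).

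Vwf, the multimeric protein that tethers platelets to injured vessel walls, read 5.27 and 5.15 in Nol3+/+ against 5.18 and 5.22 in Nol3-/- MPN. The Nol3-/- MPN values lay between the Nol3+/+ values. Its log2 difference of -0.01 (SE 0.12, 95% interval -0.32 to 0.31) was close to 0 (limma adjusted p = 0.998), and the interval spanned signals of 0.799 to 1.24 times the Nol3+/+ level. Selp, which encodes P-selectin, the granule membrane protein that binds leukocytes once platelets are activated, read 5.85 and 6.27 in Nol3+/+ against 6.24 and 6.23 in Nol3-/- MPN. Nol3+/+ replicate 1 was low and the other 3 arrays were within a narrow range. The log2 difference was 0.18 (SE 0.20, limma adjusted p = 0.927), and it was -0.03 without Nol3+/+ replicate 1.

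Among the surface receptors, Gp9, the glycoprotein IX chain of the receptor complex for von Willebrand factor, read 7.35 and 6.97 in Nol3+/+ against 6.69 and 7.16 in Nol3-/- MPN. The groups overlapped, and each spread was wider than the difference of -0.23 (SE 0.27, limma adjusted p = 0.931). Gp6, the platelet collagen receptor, read 5.85 and 6.07 in Nol3+/+ against 6.03 and 6.14 in Nol3-/- MPN, with a difference of 0.12 (SE 0.17, limma adjusted p = 0.939). The highest array for Gp6 was Nol3-/- MPN replicate 2 and the lowest Nol3+/+ replicate 1. Treml1, which encodes TLT-1, a receptor held in alpha granules and exposed on activated platelets, read 5.53 and 5.74 in Nol3+/+ against 5.86 and 5.48 in Nol3-/- MPN. The highest and the lowest value of Treml1 were both Nol3-/- MPN arrays, and the difference was 0.03 (SE 0.19, limma adjusted p = 0.994).

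Rgs18, a regulator of G-protein signalling found in megakaryocytes and other blood cells, read 9.39 and 10.002 in Nol3+/+ against 9.85 and 9.75 in Nol3-/- MPN. The lowest and the highest value of Rgs18 were both Nol3+/+ arrays. The log2 difference was 0.10 (SE 0.26, 95% interval -0.55 to 0.75, limma adjusted p = 0.971), and it was -0.20 without Nol3+/+ replicate 1. Nfe2, the blood-specific subunit of NF-E2, which drives late maturation and platelet release, read 5.14 and 4.89 in Nol3+/+ against 4.90 and 4.96 in Nol3-/- MPN. Its groups overlapped, with a difference of -0.08 (SE 0.14, 95% interval -0.44 to 0.28, limma adjusted p = 0.958), and its values lay close to the limit for dim genes.

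**Figure D2:**
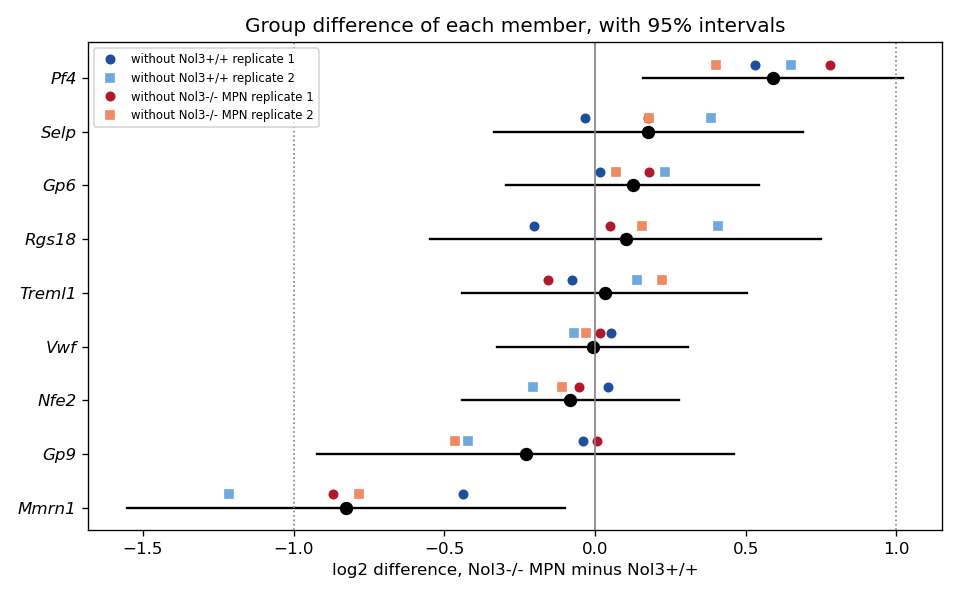
Log2 difference, Nol3-/- MPN minus Nol3+/+ (x axis), of each measured member (y axis): black points with 95% limma intervals use all 4 arrays, coloured points leave out 1 array each, and dotted lines mark 2-fold. The intervals of Pf4 and Mmrn1 lie off 0, and those of 7 members lie within 2-fold on both sides.

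The precision of the design bounded what could be seen. For 7 of the 9 members the 95% interval covered 0 and excluded a 2-fold difference of deposited signal in either direction. Vwf and Nfe2 are among these, with low mean signals of 5.21 and 4.97 over the 4 arrays. Whether their signals exceeded background was not tested, so no bound on transcript is given for them. Of all genes tested, 83.1% had an interval that excluded 2-fold. Counted separately, 15670 of the 16635 genes had an interval that covered 0. The interval of Mmrn1 spanned signals of 0.341 to 0.934 times the Nol3+/+ level.

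Spread between arrays of 1 group was larger than the group difference for most members, as it was for most genes tested. In 7 of 9 members the group difference was smaller than the wider of the 2 replicate gaps, against 77.0% of all genes. Nol3+/+ replicate 1 was the highest or the lowest array for 8 of 9 members, 4 each way, against 59.6% of all genes. It was lowest for Pf4, Selp, Gp6 and Rgs18 and highest for Vwf, Gp9, Mmrn1 and Nfe2. Across all genes tested, the same array correlated less with the other 3 (r = 0.899 to 0.911) than these did with each other (r = 0.929 to 0.949), a description across genes, which are not independent. Without it, 0 of 9 members reached an unadjusted limma p under 0.05, against 5.57% of all genes in the same fit. There were 0 without Nol3-/- MPN replicate 2 (4.92% of all genes), 1 (Pf4) without Nol3-/- MPN replicate 1 (3.44%) and 2 without Nol3+/+ replicate 2 (11.4%).

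**Figure D3:**
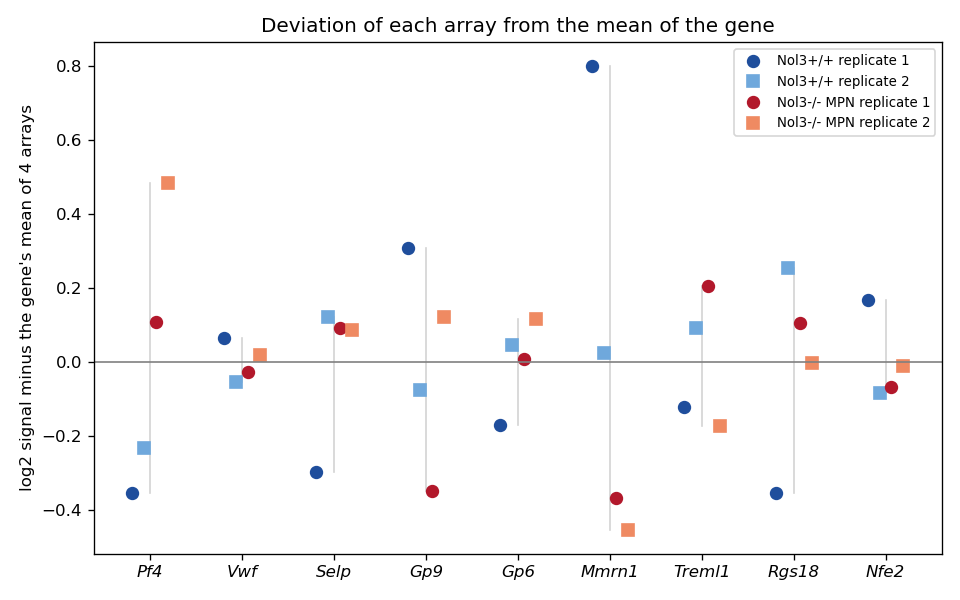
Deviation of each array from the mean over the 4 arrays (y axis, log2 units) for each measured member (x axis). Nol3+/+ replicate 1 (dark blue circles) is at 1 end of the range for every gene except Treml1, high for 4 genes and low for 4.

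The other genes of the lineage were taken from 4 lists set by role, with 67 genes in all, of which 61 were measured and 55 tested. Of the 55, 29 were higher and 26 lower in Nol3-/- MPN, with a median difference of 0.01. The adjusted limma threshold was passed by 0 of the 55, against 0.024% of all genes. At an unadjusted limma p under 0.05 there was 1 gene of the 55, P2ry1, against 5.80% of all genes. No gene of these lists differed 2-fold, against 296 of the 16635 genes tested.

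Of 15 tested surface receptor genes, 8 were higher and 7 lower, with differences from -0.30 to 0.33. P2ry1, an ADP receptor that triggers platelet shape change, read 5.22 and 5.07 in Nol3+/+ against 5.50 and 5.45 in Nol3-/- MPN, a difference of 0.33 (SE 0.13, limma adjusted p = 0.841). The fibrinogen receptor chains were both lower without passing the threshold. Itga2b, also an early megakaryocyte marker, read 5.31 and 5.35 against 5.08 and 5.20, and its partner Itgb3 read 5.17 and 4.89 against 4.83 and 4.63 (differences of -0.19 and -0.30, limma adjusted p = 0.863 and 0.841). Both Nol3-/- MPN values of Itgb3 lay under the limit for dim genes, and it was tested only through its Nol3+/+ arrays. Gp5, which associates with the complex of Gp9, read 5.42 and 5.32 against 5.45 and 5.66, a difference of 0.19. Fcer1g, the signalling chain that partners Gp6, differed by -0.04 with overlapping groups. The remaining chain of the von Willebrand factor receptor, Gp1bb, shares its row with a neighbouring gene and was not analysed here.

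Of 12 tested granule genes, 6 were higher and 6 lower, and the median difference was 0.01. Ppbp, another chemokine of the alpha granule, read 5.26 and 4.91 in Nol3+/+ against 4.85 and 5.36 in Nol3-/- MPN, a difference of 0.02 (SE 0.23), and its groups overlapped where those of Pf4 did not. F5, the coagulation factor that multimerin 1 binds, differed by 0.04 with overlapping groups, against -0.83 for Mmrn1. The smallest limma p-values of the list were those of Pdgfa, a growth factor released from platelets, at -0.25 (SE 0.13, adjusted p = 0.841), and Sparc, a matrix protein, at 0.31 (SE 0.16, adjusted p = 0.841). Thbs1, which encodes thrombospondin 1, lay under the limit for dim genes.

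Of 14 tested cytoskeleton and signalling genes, 8 were higher and 6 lower. Cavin2, a membrane-shaping protein of caveolae, read 6.16 and 6.61 in Nol3+/+ against 5.83 and 5.94 in Nol3-/- MPN, a difference of -0.50 (SE 0.21, limma adjusted p = 0.841). Fermt3, the kindlin that activates integrins in blood cells, read 5.71 and 5.32 against 5.14 and 5.12, a difference of -0.39 (SE 0.17, adjusted p = 0.841). In both genes all Nol3-/- MPN arrays were below all Nol3+/+ arrays. Tubb1, the platelet beta-tubulin, lay under the limit for dim genes.

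The transcription factors of the lineage showed 7 genes higher and 7 lower, with differences from -0.31 to 0.32. Gata1, the factor that drives megakaryocyte and erythroid fate, read 5.18 and 5.18 in Nol3+/+ against 5.19 and 5.30 in Nol3-/- MPN, a difference of 0.07 (SE 0.12). Its cofactor gene Zfpm1 (FOG1) read 5.19 and 4.99 against 5.18 and 5.59, a difference of 0.30 with overlapping groups. The ETS factor gene Fli1 differed by -0.13, Gfi1b by -0.13 and Runx1 by -0.08, the last with Nol3+/+ arrays 1.24 log2 units apart. Of the small Maf proteins that pair with Nfe2, Mafg read 5.78 and 5.44 against 5.43 and 5.17, a difference of -0.31 (SE 0.18, limma adjusted p = 0.853), and Mafk differed by -0.06.

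**Figure D4:**
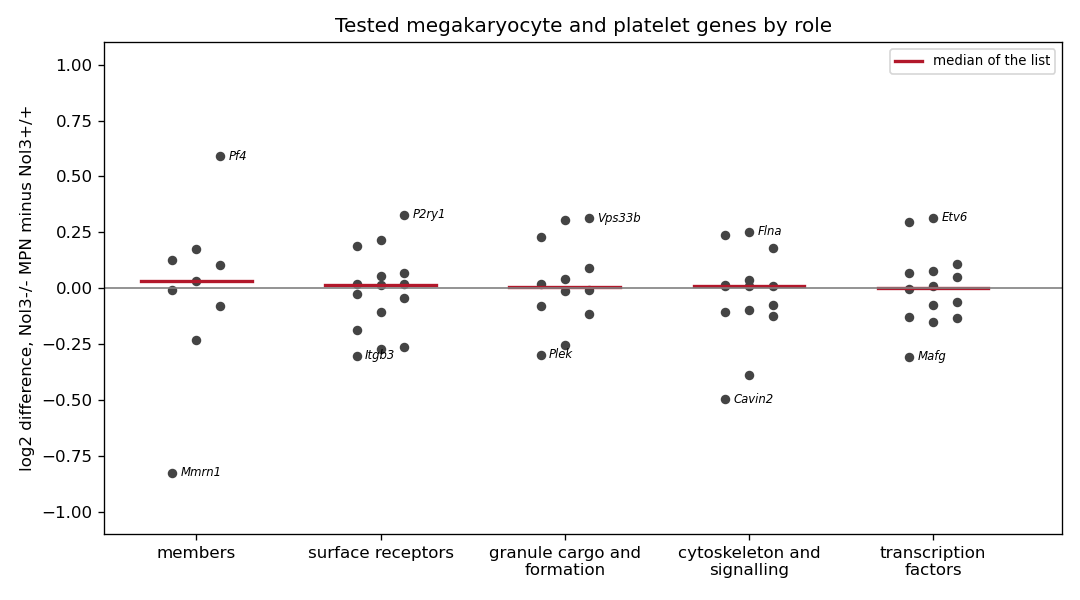
Log2 difference, Nol3-/- MPN minus Nol3+/+ (y axis), of each tested gene in 5 groups by role (x axis), with the highest and lowest gene of each group named and red lines at the medians. All 5 medians lie between 0.00 and 0.03, and only members reach beyond 0.50 in size.

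Sort genes and markers of other cells were read as checks on the fraction. Kit read 8.07 and 8.10 in Nol3+/+ against 8.38 and 7.39 in Nol3-/- MPN, and Thy1 read 4.74 and 5.02 against 4.64 and 5.24, on both sides of the limit for dim genes. The Sca-1 gene Ly6a was not analysed here. The summed signal of the 9 members (log2 of the sum of linear signals) was 10.2 and 10.6 in Nol3+/+ against 10.4 and 10.4 in Nol3-/- MPN. The groups overlapped in this sum. Such a sum leans on its strongest signals, though levels of different genes rest on different probes. Among the members Rgs18 had the strongest signal on every array. The summed signal of 6 measured erythroid markers was 9.37 and 9.30 against 9.11 and 9.07, and that of 10 granulocyte and monocyte markers 10.6 and 10.9 against 10.5 and 10.6. That of 10 stem cell markers was 9.95 and 10.2 against 9.90 and 9.88. The sums of 6 basophil and mast cell, 9 lymphoid and 9 stromal and endothelial markers were 8.06 and 9.18 against 8.71 and 9.17, 8.83 and 8.86 against 8.90 and 8.92, and 8.56 and 8.39 against 8.28 and 8.50. Both Nol3-/- MPN arrays were thus lower in the sums of erythroid and stem cell markers and higher in that of lymphoid markers, and overlapped in the others. Of single genes tested, 19.7% had both Nol3-/- MPN arrays above both Nol3+/+ arrays and 15.9% had both below. The sums carry no test. Within the erythroid list Car2, a carbonic anhydrase gene, had the strongest signal on every array (8.48 and 8.42 against 8.11 and 7.95). The erythroid sum therefore leans on Car2, and a sum without it was not taken. Car2 differed by -0.42, while Klf1 and Car1, the 2 erythroid genes that were higher, differed by 0.04 and 0.15. In these 6 lists 0 genes passed the adjusted limma threshold, against 0.024% of all genes. At an unadjusted limma p under 0.05 there were 1 of 9 tested stem cell genes (lower) and 1 of 9 lymphoid genes (higher). There were also 3 of 9 granulocyte and monocyte genes (1 higher, 2 lower). The higher one, Prtn3, read 4.78 and 4.66 in Nol3+/+ against 5.18 and 5.25 in Nol3-/- MPN. Its Nol3+/+ values lay under the limit for dim genes, so its place in this count depends on the group where it was high. None of the 6 erythroid, 4 basophil and mast cell or 7 stromal and endothelial genes reached it. The share over all genes tested was 5.80%.

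The leading genes of these marker lists by limma p were Hlf (stem cells) at -0.83, Rhd (erythroid) at -0.35, Prtn3 (neutrophil granules) at 0.50, Ms4a2 (mast cells and basophils) at 0.28, Cd79b (B cells) at 0.50 and Col3a1 (stroma) at -0.35, each with a limma adjusted p of 0.841 or more. A leading gene does not stand for its list. Tested stem cell genes were 3 higher and 6 lower, with Mecom at 0.31. Stromal and endothelial genes were 3 higher and 4 lower, with Cdh5 at 0.22. Erythroid genes were 2 higher and 4 lower, lymphoid genes 6 and 3, and basophil and mast cell genes 4 and 0. Over all genes tested 51.7% were higher. Of the 9 tested granulocyte and monocyte genes 4 were higher and 5 lower, and the calprotectin genes S100a8 and S100a9 and the monocyte marker Ly6c2 differed by -0.86, -0.83 and -0.77, further than Prtn3. Xist, transcribed from the inactive X chromosome in female cells, read 5.43 and 5.28 in Nol3+/+ against 10.9 and 10.7 in Nol3-/- MPN (limma adjusted p = 0.0234). The Y-linked Eif2s3y read 6.53 and 7.17 against 4.24 and 3.97 (limma adjusted p = 0.198). Sex-linked signal thus followed the same division of arrays as genotype. The part of these markers in the values of Pf4 and Mmrn1 was not tested, and sex and genotype cannot be told apart.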

How the data were processed

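The authors deposited 1 table of normalized log2 values with 41345 rows and 4 arrays, made from amplified RNA (single-primer isothermal amplification, per the labels' protocols) with Affymetrix Expression Console and Transcriptome Analysis Console, per the submitters' processing notes. Background correction and normalization steps were not given in the sources used here. A log2 scale was taken from the values, with no base stated. Array medians were 5.35 to 5.39. Precision is limited by the number of arrays, and no detection call was used.

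Rows with exactly 1 symbol in the platform annotation (23521 rows) were used, taking the row with the highest mean for each of the 1082 genes with several. Genes under the 25th percentile of mean signal (4.835) were left out, leaving 16635. The test was limma 3.58.1 under R 4.3.3 (lmFit, eBayes with a trend, 2 residual and 3.19 prior degrees of freedom) and Benjamini-Hochberg adjustment over all genes tested, at 0.05. The code was tested on simulated data. SE is limma's standard error. The members and lists were chosen with earlier results of these data known, so lists are described by counts and medians and carry no test. Named genes were the members, partner genes set by role, the 2 genes with the smallest p in each wider list, and the first of each marker list. Further marker genes, dim or unmeasured genes and list extremes were named after their values were seen. Alternatives were a replicate block, each array left out, quantile normalization, other dim filters, the mean of a gene's rows, no variance trend, array weights, and no X- or Y-linked genes. An item withheld from the text is not reported here.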

Additional observations from a re-analysis of the deposited data

How the results depend on the processing

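With 2 arrays a group and several values near the limit for dim genes, single calls are imprecise. In all 12 alternatives 0 members passed the adjusted limma threshold, and 96 of 105 member differences kept their direction without crossing it. The rest turned sign. Only quantile normalization and leaving out an array could change a member's difference. The other alternatives returned the main difference for every member they tested, so its direction was fixed there. Leaving out 1 array could not turn the sign of Pf4 or Mmrn1, whose groups did not overlap. With each array left out in turn, the differences ran from -0.466 to 0.0052 for Gp9, -0.207 to 0.0436 for Nfe2, -0.203 to 0.406 for Rgs18, -0.0326 to 0.386 for Selp, -0.157 to 0.222 for Treml1 and -0.0683 to 0.0520 for Vwf. The sign turned without Nol3+/+ replicate 1 for Nfe2, Rgs18, Selp, Treml1 and Vwf, and without Nol3-/- MPN replicate 1 for Gp9, Treml1 and Vwf. Quantile normalization gave 0.00022 for Vwf. The cause was not tested. The members' median lay between -0.0326 and 0.139 with an array left out, and that of the wider lists between -0.0595 and 0.0369. Limma called 0 genes with a replicate block and 0 without X- and Y-linked genes, against 4. With 1 array left out it called 18 (without Nol3+/+ replicate 1), 39 (without Nol3+/+ replicate 2) or 0 (without either Nol3-/- MPN array); the array left alone in its group is assumed to vary like the others. Deviations of same-numbered arrays correlated at 0.0485 across genes, so the numbers were not taken as pairs, and the block changed no member's call. With the stricter dim filter Pf4, Vwf and Nfe2 were not tested, and no members' median was taken.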
